A study of Mus musculus with 6 samples.

Results

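Cohesin and condensin are the ring-shaped complexes that hold sister chromatids together and fold chromosomes. The 10 genes described here encode cohesin subunits (Smc1a, Smc3, Rad21, Stag1 and Stag2), a cohesin acetyltransferase (Esco2) and condensin subunits (Smc2, Smc4, Ncapd2 and Ncaph). Members were the non-control probes whose accession, without its version, belongs to 1 of these 10 symbols in RefSeq. They numbered 11 probes of 55681 on the array and 10 genes of the 19988 that could be named, with 2 probes for Stag1 and 1 for each other gene.

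RNA was compared between S-phase cells of the mouse dorsal telencephalon, the future cerebral cortex, at embryonic day 14.5. All embryos, in both groups, were heterozygous Tis21-GFP knock-ins on a C57BL/6 background, bred from homozygous Tis21-GFP males and wildtype C57BL/6 females, so the controls carried the reporter allele too. Tis21 (Btg2) is switched on in progenitors that have turned to neuron production, so GFP separates Tis21-GFP positive from Tis21-GFP negative cells. Both groups were sorted for S phase with a DNA dye, taking cells that had begun but not completed DNA replication. Each replicate pooled tissue of 15 embryos (30 hemispheres, about 200000 cells), each experiment drew on at least 3 pregnant mice, and the authors kept the 3 experiments they judged best, by a rule not given in the sources used here. There were 3 one-colour arrays per group, hybridised from 50 ng of RNA each. The negative group was defined by absence of GFP and can hold any GFP-negative cell of the dissected tissue in that DNA window.

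Cohesin is a ring of Smc1a, Smc3 and the kleisin Rad21, to which 1 of the paralogs Stag1 or Stag2 binds. It is loaded before replication, locked onto the new sister chromatids during S phase when Esco1 or Esco2 acetylates Smc3, and opened at anaphase when separase cleaves Rad21; through S phase and interphase it also forms chromatin loops that stop at Ctcf sites. Condensin uses the Smc2-Smc4 pair with a kleisin and 2 repeat proteins (Ncaph, Ncapd2 and Ncapg in condensin I; Ncaph2, Ncapd3 and Ncapg2 in condensin II) to compact chromosomes for mitosis. Some of these genes are transcribed in step with the cell cycle, which can run through E2F sites, CCAAT boxes and cell-cycle homology regions (CHR) in promoters.

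Promoter windows (250 bases before to 50 after the annotated start) were found in RefSeq, build GRCm38.p6, for 6 of the 10 members: Smc1a, Smc3, Stag1, Smc2, Ncapd2 and Ncaph. Those of Rad21, Stag2, Esco2 and Smc4 were not analysed here. The 250 bases before the start are shown for the 2 condensin genes and the cohesin gene of this set that were higher in positive cells, and for Smc3, which did not pass the test, written 5′ to 3′ on the gene's strand. Capitals mark matches, on either strand, to the E2F letters TTTCCCGC or TTTGGCGC, the CHR letters TTTGAA or the CCAAT box.
Ncapd2 (chr6:125191587-125191836, minus strand): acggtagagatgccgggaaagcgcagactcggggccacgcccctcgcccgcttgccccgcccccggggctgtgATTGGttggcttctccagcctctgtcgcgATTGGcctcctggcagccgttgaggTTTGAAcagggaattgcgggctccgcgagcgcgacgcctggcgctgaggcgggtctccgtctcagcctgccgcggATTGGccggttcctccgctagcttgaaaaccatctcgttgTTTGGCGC
Smc2 (chr4:52438971-52439220, plus strand): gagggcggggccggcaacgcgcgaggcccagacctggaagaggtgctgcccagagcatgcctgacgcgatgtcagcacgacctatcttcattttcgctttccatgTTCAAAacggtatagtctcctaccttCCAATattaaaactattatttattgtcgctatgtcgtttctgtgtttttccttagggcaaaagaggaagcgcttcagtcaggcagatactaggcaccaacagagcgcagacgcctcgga
Smc1a (chrX:152016178-152016427, plus strand): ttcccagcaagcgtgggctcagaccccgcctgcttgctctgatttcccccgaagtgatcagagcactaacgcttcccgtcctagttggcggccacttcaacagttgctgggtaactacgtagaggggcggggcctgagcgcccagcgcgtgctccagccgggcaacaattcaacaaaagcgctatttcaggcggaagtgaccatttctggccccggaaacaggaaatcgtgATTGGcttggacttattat
Smc3 (chr19:53600146-53600395, plus strand): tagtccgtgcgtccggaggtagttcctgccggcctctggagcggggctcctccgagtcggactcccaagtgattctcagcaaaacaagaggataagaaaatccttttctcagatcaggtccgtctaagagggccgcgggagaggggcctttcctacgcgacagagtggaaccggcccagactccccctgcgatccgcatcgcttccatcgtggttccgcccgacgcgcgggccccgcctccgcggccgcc

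The Ncapd2 window held all 3 kinds of match: an E2F match beginning 8 bases before the start, a CHR match at 123 bases and CCAAT boxes at 177, 148 and 48 bases before it. Smc2 held a CHR match at 145 bases and a CCAAT box at 119 bases before the start, and a second CHR match that begins at base 27 after it, beyond the stretch shown. Smc1a held a CCAAT box 19 bases before the start and an E2F match beginning at base 38 after it. Smc3 and Ncaph held no match to these letters in the 300-base window. Stag1 held an E2F match at 17 bases and a CCAAT box at 78 bases before its start. Thus 3 of the 6 members with a window had an E2F match, 2 a CHR match and 4 a CCAAT box. Over the 37 members and other pathway genes with a window, 7 had an E2F match, 16 a CHR match and 21 a CCAAT box. Counted per gene in the same way, over the 10479 tested genes with a window, 3.26% held the E2F letters, 14.3% the CHR letters and 43.3% a CCAAT box, and among all 32851 windows of that length the shares were 1.56%, 17.9% and 37.4%. The windows listed for Stag1 and Ncapd2 lie inside the annotated span of those genes, so another transcript of each starts elsewhere. A match is a stretch of letters and was not tested for binding.

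Of the 10 member genes, 4 were higher in Tis21-GFP positive cells and 0 lower (limma, Benjamini-Hochberg adjusted over 13132 genes, threshold 0.05; 6 higher and 0 lower at an unadjusted p under 0.05). The 4 were the condensin genes Ncapd2 and Smc2 and the cohesin ring genes Rad21 and Smc1a, with differences of between 1.38-fold and 1.68-fold. Across all tested genes, 12.8% were called higher and 13.1% lower at the adjusted threshold. The shares at an unadjusted p under 0.05 are not given here, so counts at that level have no comparison beside them. All 3 positive arrays lay above all 3 negative arrays for 7 of the 10 members, against 28.1% of all tested genes. The median log2 difference of the members, positive minus negative, was 0.42, against 0.12 for all tested genes. All 10 genes and 11 probes were well above background on all 6 arrays, so none entered the test through 1 group alone. Tested probe by probe over 28908 probes, where 7.51% were called higher and 8.97% lower, 2 of the 11 member probes were called higher, those of Ncapd2 (adjusted p = 0.0205) and Smc2 (adjusted p = 0.0303), and 0 lower (6 higher and 0 lower at an unadjusted p under 0.05). Values below are log2 processed signal minus the 75th percentile of the same array. They are relative to the rest of each array, so more cells with a transcript and more transcript per cell cannot be told apart.

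**Figure D1:**
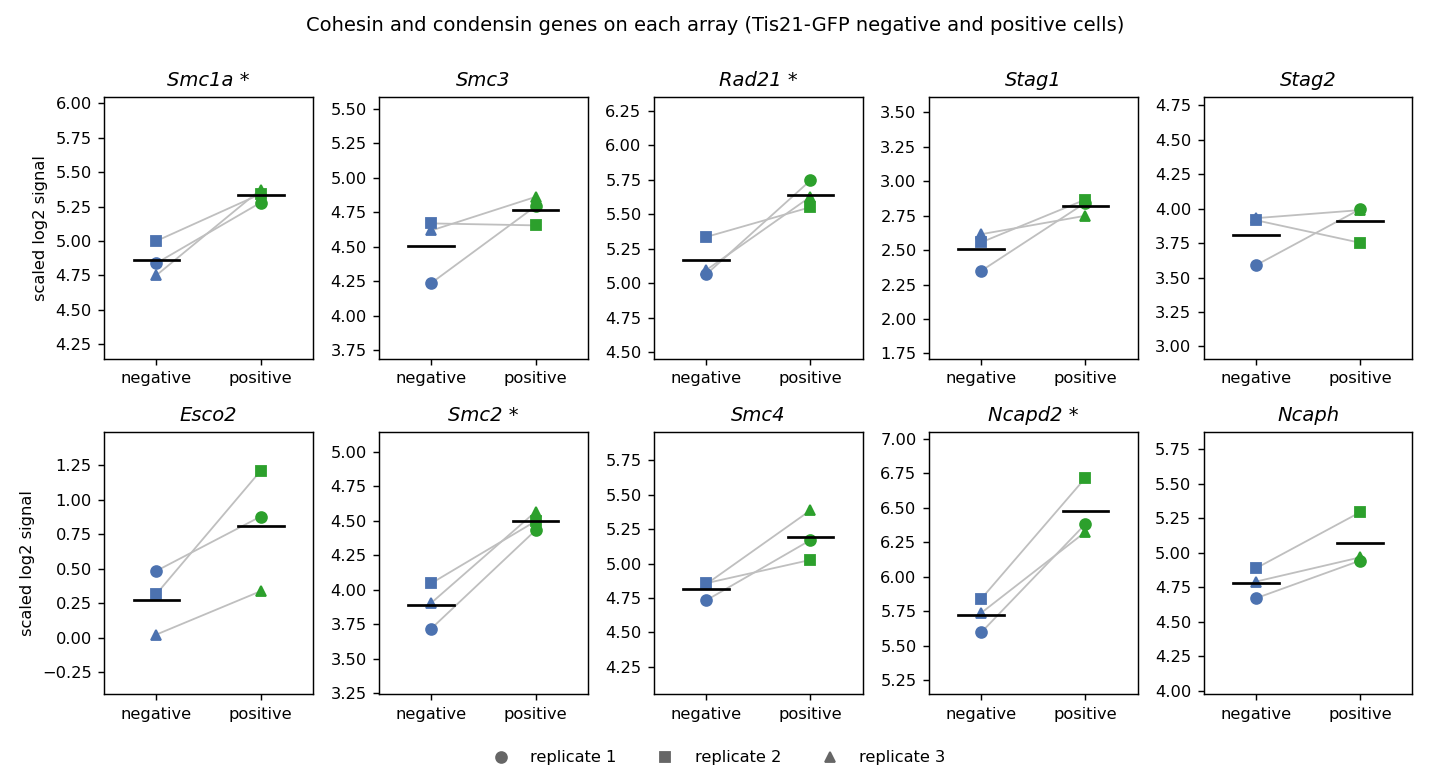
Scaled log2 signal of each member gene on every array, negative on the left and positive on the right, with a marker shape per replicate number, grey lines joining same-numbered arrays and black bars at the means of 3; a star marks an adjusted p under 0.05 (Smc1a, Rad21, Smc2 and Ncapd2). Each panel spans the same number of log2 units but has its own centre, and the groups overlap for Smc3, Stag2 and Esco2.

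Among the ring subunits, Smc1a and Rad21 rose and Smc3 did not pass the test. Smc1a, an ATPase arm of the ring, read 4.84, 5.00 and 4.75 on the negative arrays of replicates 1 to 3 and 5.28, 5.34 and 5.37 on the positive arrays. Every positive array lay above every negative array, and the positive arrays differed little among themselves. Smc1a was 1.38-fold higher (95% interval 1.12 to 1.70), or 0.47 ± 0.13 higher on the log2 scale (SE, 3 arrays per group; limma adjusted p = 0.0331). Rad21, the kleisin that closes the ring and is cut at anaphase, read 5.06, 5.34 and 5.10 on the negative arrays and 5.75, 5.55 and 5.63 on the positive arrays. These groups did not overlap either, with the narrowest gap in replicate 2. Rad21 was 1.39-fold higher (interval 1.12 to 1.74), with a log2 difference of 0.48 ± 0.14 (limma adjusted p = 0.0387). Smc3, the partner arm and the substrate of the acetyltransferases, read 4.24, 4.67 and 4.62 on the negative arrays and 4.79, 4.65 and 4.86 on the positive arrays. Positive replicate 2 lay below negative replicate 2, and negative replicate 1 lay below the rest. Its log2 difference was 0.26 ± 0.16 (limma adjusted p = 0.244), a fold of between 0.931 and 1.54 by its 95% interval, and it was -0.0086 after quantile normalization and -0.011 in the authors' processed values. The calls for Smc1a and Rad21 were narrow. That of Smc1a was lost without negative replicate 1 or 3 or any 1 of the 3 positive replicates (0.41 to 0.49), and its adjusted p ran from 0.0096 to 0.318 over 17 alternatives. That of Rad21 was lost without negative replicate 1 or 3 or positive replicate 1 or 3 (0.42 to 0.48). It was also lost with the replicate number as a block (limma adjusted p = 0.0511) and with the array's row on the slide as a block. The adjusted p of Rad21 ran from 0.0113 to 0.329 over the 17 alternatives.

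The Stag paralogs, which dock on Rad21 and help set where cohesin sits, were not called. Stag1 was measured by 2 probes. The brighter read 2.35, 2.56 and 2.62 on the negative arrays and 2.84, 2.87 and 2.75 on the positive arrays, and the second read 2.22, 2.33 and 2.22 against 2.68, 2.74 and 2.69. For both probes every positive array lay above every negative array. The brighter probe, which stands for the gene, differed by 0.31 ± 0.13 (limma adjusted p = 0.118), and the second by 0.44 ± 0.13 in the probe-level fit (adjusted p = 0.0556, against 0.168 there for the brighter). Stag2 read 3.59, 3.92 and 3.93 on the negative arrays and 4.00, 3.75 and 3.99 on the positive arrays. The groups overlapped, and positive replicate 2 lay below negative replicates 2 and 3. Its difference was 0.10 ± 0.15 (adjusted p = 0.646; fold interval 0.840 to 1.37), close to the median of all tested genes, and it turned negative with 3 other scalings (-0.14, -0.14 and -0.073) and, at -0.010, without negative replicate 1. Whether the paralogs moved unequally was tested on the within-array difference Stag1 minus Stag2. It was -1.31 ± 0.06 in negative and -1.09 ± 0.19 in positive cells (SD, n = 3), a change of 0.21 (two-sided exact permutation p = 0.1, the smallest that 3 arrays against 3 allow, and 0.3 adjusted over 3 gene pairs). The shift had the same sign in all 3 replicate pairs, at 0.09, 0.47 and 0.08.

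Esco2, the acetyltransferase that acts on Smc3 in S phase, had the largest standard error of the members and was not called. Its signal was 0.48, 0.32 and 0.02 on the negative arrays and 0.88, 1.21 and 0.34 on the positive arrays. Within each replicate number the positive array was the higher, but positive replicate 3 lay below negative replicate 1. The difference was 0.53 ± 0.24 (limma adjusted p = 0.129; fold 1.45, interval 0.993 to 2.11). It passed only without positive replicate 3 (0.77, adjusted p = 0.0261, against up to 0.332 over the 17 alternatives), and without positive replicate 2 it was 0.33. Its paralog Esco1, measured by 2 probes, differed by 0.05 ± 0.13 by the brighter (limma adjusted p = 0.788). Its second probe differed by -0.06 ± 0.20 in the probe-level fit (limma adjusted p = 0.851). Esco2 minus Esco1 within arrays was -0.13 ± 0.17 in negative and 0.35 ± 0.37 in positive cells (SD, n = 3). The change was 0.48 (exact permutation p = 0.2, and 0.3 adjusted over the 3 pairs), with the same sign in all 3 replicate pairs.

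Of the 4 condensin members, Ncapd2 and Smc2 rose, while Smc4 and Ncaph did not pass although their groups did not overlap. Ncapd2, a repeat protein of condensin I, read 5.60, 5.84 and 5.74 on the negative arrays and 6.38, 6.72 and 6.33 on the positive arrays. The gap between the groups exceeded the range within either group. It was 1.68-fold higher (interval 1.31 to 2.15), with a log2 difference of 0.75 ± 0.15 (limma adjusted p = 0.0103), which ranked at the 94.2 percentile of the differences of all tested genes. Smc2, an ATPase arm shared by both condensins, read 3.72, 4.05 and 3.90 on the negative arrays and 4.43, 4.50 and 4.56 on the positive arrays. All 3 positive arrays lay close together and above the negative ones. It was 1.52-fold higher (interval 1.22 to 1.90), with a log2 difference of 0.61 ± 0.14 (adjusted p = 0.0158). Without negative replicate 1 both calls were lost, Ncapd2 at 0.69 (adjusted p = 0.0503, range over 17 alternatives 0.0013 to 0.0503) and Smc2 at 0.52 (adjusted p = 0.0677, range 0.0029 to 0.0788). Smc2 was also lost without negative replicate 3, at 0.62 (adjusted p = 0.0577).

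Smc4, the ATPase partner of Smc2, read 4.73, 4.86 and 4.85 on the negative arrays and 5.17, 5.03 and 5.39 on the positive arrays. The groups did not overlap, and positive replicate 2 came nearest to the negative arrays. Its difference of 0.38 ± 0.14 (limma adjusted p = 0.0831; fold 1.30, interval 1.04 to 1.63) passed with median centring (0.56, adjusted p = 0.0355) and with a variance trend and robust fit (adjusted p = 0.0360), and its adjusted p ran up to 0.697 over the 17 alternatives. Ncaph, the condensin I kleisin, read 4.67, 4.89 and 4.79 on the negative arrays and 4.94, 5.29 and 4.97 on the positive arrays. Positive replicate 2 was the highest, and positive replicate 1 lay only just above the highest negative array. Its difference was 0.29 ± 0.15 (adjusted p = 0.187; fold 1.22, interval 0.960 to 1.55) and was -0.00079 with the authors' processed values. The condensin II kleisin gene Ncaph2, measured by 2 probes, differed by 0.20 ± 0.13 by the brighter (limma adjusted p = 0.298). Its second probe differed by 0.48 ± 0.18 in the probe-level fit (limma adjusted p = 0.105, against 0.365 there for the brighter). Ncaph minus Ncaph2 changed by 0.09 within arrays (exact permutation p = 0.3, and 0.3 adjusted over the 3 pairs), and by -0.05 when each gene was the mean of its probes.

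**Figure D2:**
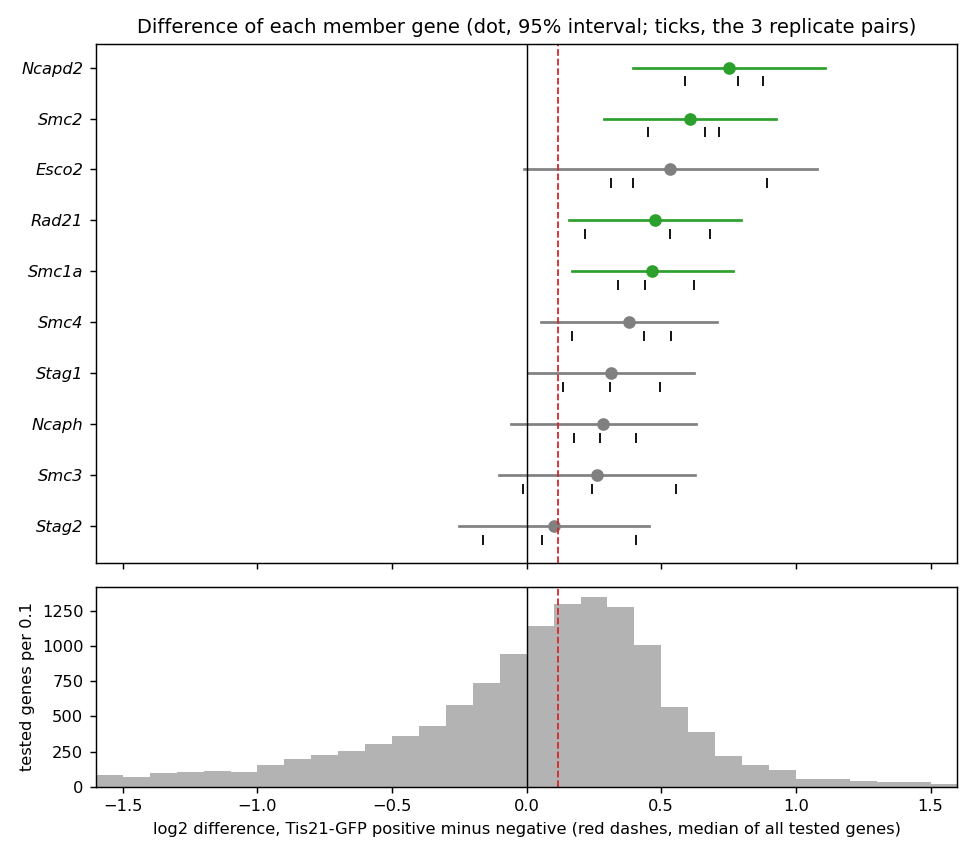
Top, the log2 difference (positive minus negative) of each member gene with its 95% interval from limma (green, adjusted p under 0.05; grey, not called), and the differences of the 3 replicate pairs as ticks; bottom, a histogram of the same quantity over the 13132 tested genes, cropped to the axis of the top panel, with their median of 0.12 as red dashes. The members run from 0.10 (Stag2) to 0.75 (Ncapd2), and the intervals of Smc3, Stag2, Esco2 and Ncaph include 0.

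By complex, 2 of the 5 cohesin ring genes were called, with a median difference of 0.31, and 2 of the 4 condensin genes, with a median of 0.49. Relative to the median of all tested genes, the differences ran from -0.01 for Stag2 to 0.64 for Ncapd2. In 8 of the 10 members all 3 replicate pairs were higher in the positive cells, and Smc3 and Stag2 were higher in 2 of 3 pairs. The share of all tested genes with 3 higher pairs is not given here, so the count only describes the members. Same-numbered arrays resembled each other, and with the replicate number as a block 3 members were called, Smc1a, Smc2 and Ncapd2, against 15.4% of all tested genes called higher in that fit.

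Of the other genes of the pathway, 38 in 7 lists, 36 were tested. Of these, 11 were higher and 0 lower in positive cells at the adjusted threshold, against 12.8% called higher and 13.1% called lower over all tested genes. Their median difference was 0.35, against 0.12 over all tested genes. At an unadjusted p under 0.05, 20 were higher and 1 lower, and the share of all tested genes at that level is not given here. The lists hold 2 to 8 tested genes each, so 1 call in a list says little about the list. Both tested meiotic cohesin subunits rose. Rec8, the kleisin that replaces Rad21 in germ cells, read 0.83, 0.75 and 0.64 on the negative arrays and 1.93, 1.98 and 1.71 on the positive arrays, a 2.19-fold difference (log2 1.13 ± 0.14, limma adjusted p = 0.00094). Stag3, the germline counterpart of Stag1 and Stag2, read -1.67, -1.73 and -2.04 against -0.70, -0.68 and -0.47, a 2.30-fold difference (log2 1.20 ± 0.15, adjusted p = 0.00117). For both genes the groups lay far apart compared with their spread, and both were well above background on all 6 arrays and called under all 17 alternatives, with Stag3 at 0.79 after normexp background correction. Smc1b, the third such subunit, was well above background on no negative array and on some but not all of the positive arrays, so it was not tested. Rad21l was not analysed here.

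Of 7 genes that load, release or stop cohesin, 2 rose, with a list median of 0.33. They were Cdca5 (sororin, which protects acetylated cohesin from release; 0.73 ± 0.18, limma adjusted p = 0.0190) and Ctcf (the DNA-binding protein at which cohesin loops stop; 0.43 ± 0.13, adjusted p = 0.0406). The loader genes Nipbl (0.33, adjusted p = 0.108) and Mau2 (0.57, adjusted p = 0.0801) and the release factor Wapl (0.19, adjusted p = 0.362) did not pass, although Mau2 did after normexp background correction, with a variance trend and robust fit, and without positive replicate 3 (0.71). Of 7 genes of cohesion establishment, 2 rose, with a median of 0.28. Dscc1, a subunit of the clamp loader that couples cohesion to the replication fork, read 0.39, 0.24 and 0.21 on the negative arrays and 1.57, 1.44 and 1.42 on the positive arrays. That was a 2.29-fold difference (log2 1.20 ± 0.13, adjusted p = 0.0006) with no overlap. It was called under all 17 alternatives. Wdhd1 (And-1, a fork scaffold) differed by 0.66 ± 0.16 (adjusted p = 0.0184). Of 4 genes of cohesin cleavage and protection, 2 rose, with a median of 0.64: the shugoshins Sgo1 (0.65 ± 0.17, adjusted p = 0.0271) and Sgo2a (0.71 ± 0.22, adjusted p = 0.0495), which shield centromeric cohesin. The separase gene Espl1 differed by 0.62 (limma adjusted p = 0.068) and was called higher with the replicate number as a block (adjusted p = 0.0182, range over the alternatives 0.018 to 0.208), with median centring, after normexp background correction, with a variance trend and robust fit, and without positive replicate 3 (0.82). The securin gene Pttg1 differed by -0.20 (adjusted p = 0.264) and was called lower under 3 of the scalings, at -0.39, -0.39 and -0.38.

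Of the 4 other condensin subunits, 1 rose, with a median of 0.33. It was Ncapd3, the condensin II counterpart of Ncapd2, at 0.57 ± 0.13 (limma adjusted p = 0.0174). Of 4 condensation partners, 1 rose, with a median of 0.36. It was Top2a, the topoisomerase that decatenates sister chromatids and works with condensin on mitotic chromosomes. Its signal was 3.82, 3.85 and 3.76 on the negative arrays and 4.74, 4.99 and 4.41 on the positive arrays, a 1.87-fold difference (log2 0.91 ± 0.17, adjusted p = 0.00663), called under all 17 alternatives. Of the 8 genes of the Smc5/6 complex and Smchd1, relatives of cohesin and condensin in DNA repair and gene silencing, 1 rose, close to the share of 12.8% over all tested genes, with a median of 0.28: the kleisin-like subunit Nsmce4a at 0.45 ± 0.12 (adjusted p = 0.0315). The 1 gene that stood lower at an unadjusted p under 0.05 was Eid3, a relative of Nsmce4a, at -0.61 ± 0.21 (adjusted p = 0.0693), and it was called lower with the replicate block. Leaving out 1 array ended a call of all 11 genes but Rec8, Stag3, Dscc1 and Top2a, and the number called then ran from 5 (without negative replicate 1 or 3) to 11.

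**Figure D3:**
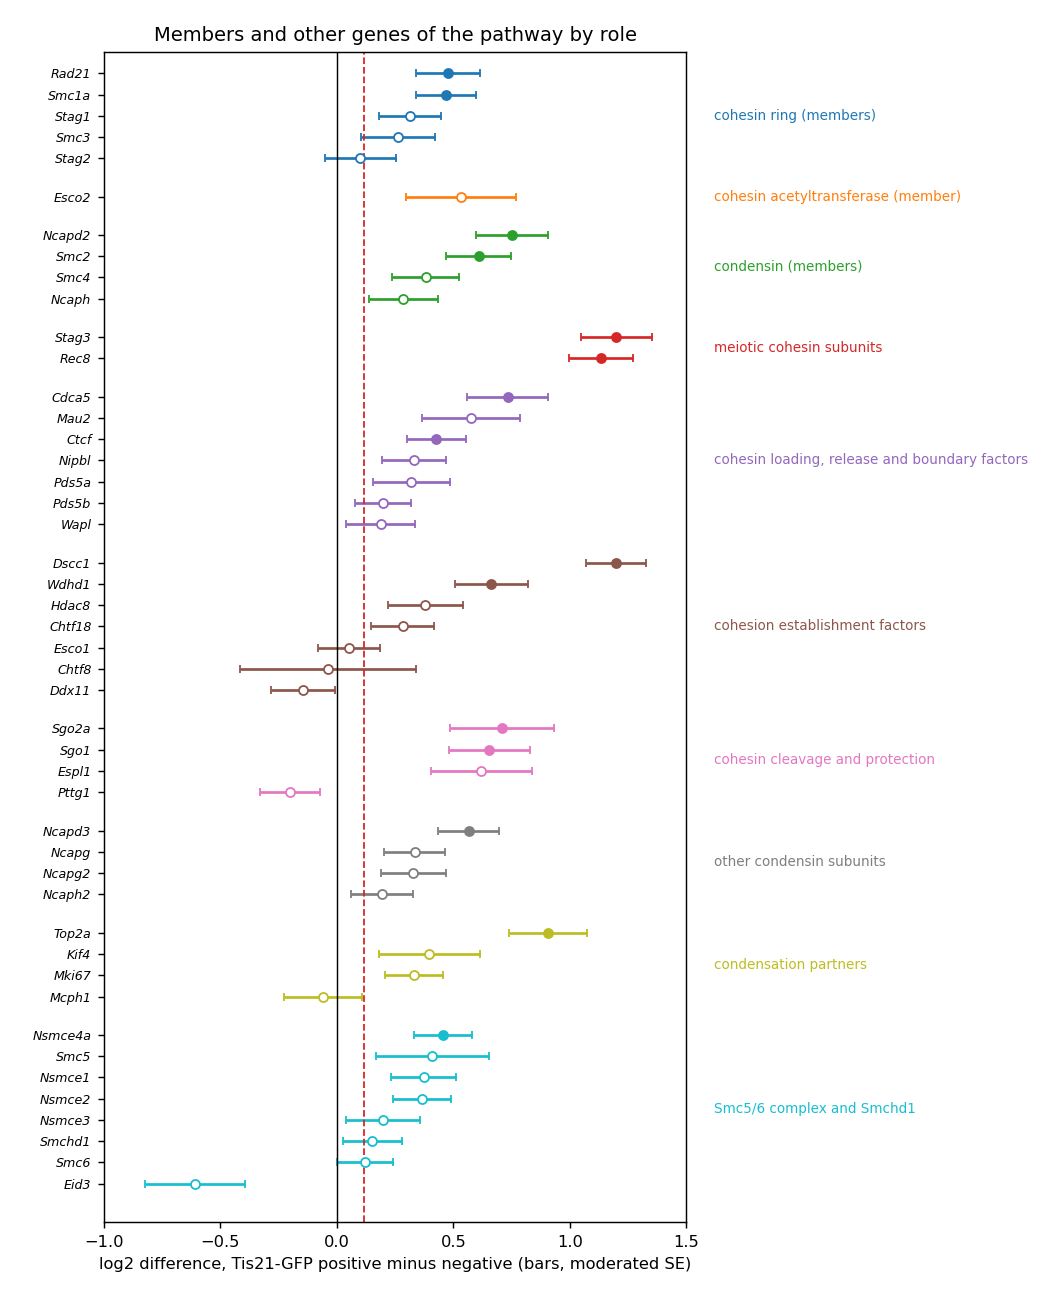
Log2 difference (positive minus negative) with its moderated SE for the members and the other tested genes of the pathway, grouped by role, with 0 as a black line and the median of all tested genes as red dashes. Dscc1, Stag3, Rec8 and Top2a stand farthest to the right, and Eid3 farthest to the left at -0.61.

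The 5 tested genes whose profile over the 6 arrays was most like the mean of the 10 members were Fundc2 and Kdm1a (Pearson r = 0.998 for each), Arhgef2 (0.997), and Cox6b1 and Usf2 (0.996 for each). Fundc2 encodes a mitochondrial outer membrane protein, Kdm1a a histone demethylase, Arhgef2 a microtubule-associated exchange factor, Cox6b1 a subunit of cytochrome c oxidase and Usf2 a transcription factor. Their own differences ran from 0.47 (Cox6b1) to 1.03 (Arhgef2). With 6 arrays in 2 groups, r mainly follows the group difference, and it is given as a description.

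How far the members stood above 0 depended on the scaling between arrays. Their median difference was 0.15 after quantile normalization, 0.15 in the authors' processed values, 0.25 with the 75th percentile taken over the probes above background on every array, 0.38 after normexp background correction and 0.60 with median centring, against medians of all tested genes of 0.022, 0.020, -0.058, 0.099 and 0.30. Relative to those medians the members stood 0.13 higher in the first pair of settings and 0.28 to 0.31 higher in the others and in the setting used above. The setting used above, the percentile over detected probes and median centring differ only by 1 constant per array. Their excess of 0.31 is therefore the same by construction. The first pair is not independent either, since the authors' values are themselves quantile normalized. Calls over all genes were 49.6% higher in that setting, 39.6% with quantile normalization, 39.4% with the authors' values, 29.1% with the percentile over detected probes and 65.8% with median centring. Ncapd2 was called in all 6 scalings, Smc2 in 4, Smc1a and Rad21 in 3 and Smc4 in 1.

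**Figure D4:**
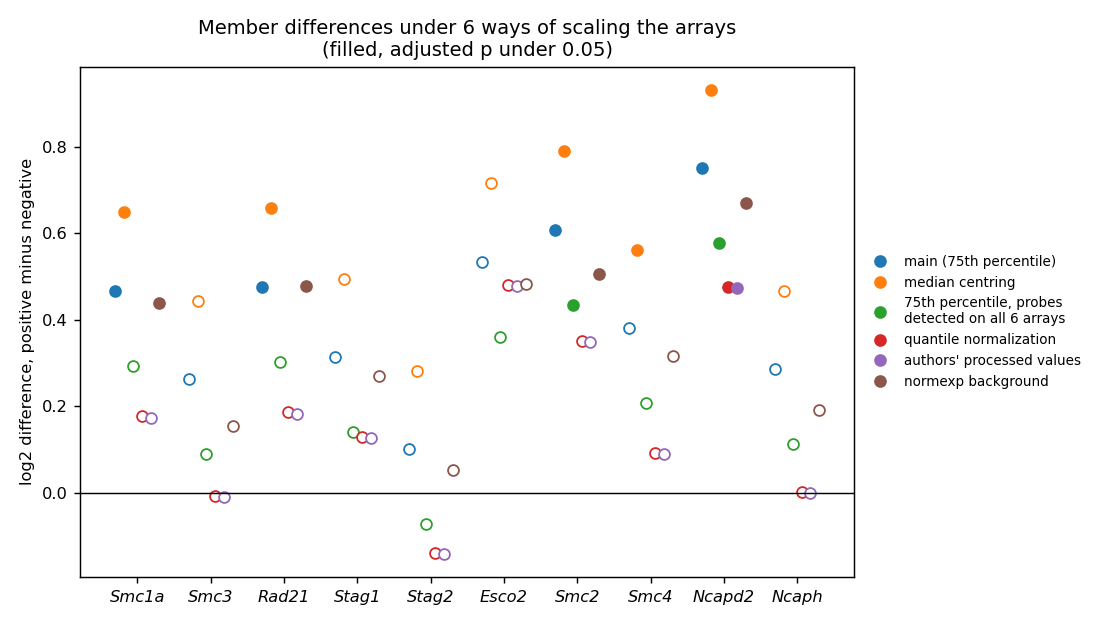
Log2 difference (positive minus negative) of each member under 6 ways of scaling the arrays, filled where the limma adjusted p was under 0.05. Ncapd2 is filled in all 6, and Smc3, Stag2 and Ncaph reach or cross 0 in at least 1.

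Markers of several cell types moved between the same groups. All 9 intermediate progenitor markers, Btg2 among them, were higher in positive cells (summed signal, in units of the array's 75th percentile, 48.8 to 73.4 in negative and 334 to 384 in positive cells), and of 10 radial glia markers 7 were lower and 0 higher (248 to 293 against 128 to 153). Of 10 postmitotic neuron markers 5 were higher and 3 lower (103 to 139 against 162 to 195). Of 10 microglia and macrophage markers, 9 were tested and all 9 were lower (14.3 to 18.6 against 4.32 to 7.84), and so were all 8 meningeal and mesenchymal markers (4.62 to 9.23 against 0.639 to 0.930), of which Col3a1, Lum and Pdgfra did not clear the background on any of the positive arrays. Of 8 tested endothelial and pericyte markers 5 were lower and 0 higher. The summed signal of the list was 8.32 to 9.52 in negative and 9.57 to 10.6 in positive cells, but 1 gene, Kdr, made up most of it (difference 0.45, adjusted p = 0.053), and the sum of the other 9 was 1.65 to 2.38 against 0.405 to 0.663. Of 4 tested red cell markers 0 were higher and 0 lower, and of 6 tested interneuron and ventral markers 1 was lower and 0 higher. The part of these cell types in the differences of the cohesin and condensin genes was not tested.

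On each array 51.2% to 56.2% of probes exceeded background, 0 non-control spots were saturated, and correlations across genes were 0.983 to 0.992 within groups and 0.954 to 0.972 across groups. Btg2, the reporter's locus, was higher in positive cells by 0.77. The 6 arrays came from 1 slide and 1 scan, and their number limits the precision of every value above.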

How the data were processed

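The deposited scanner files give intensity per spot from Agilent Feature Extraction 10.7.1.1, per the submitters' processing notes and file headers, background-corrected but unscaled. A deposited table of the authors' own holds log2 values by steps not given here. From the values it is uncentred and quantile normalized (medians 4.67 in all columns), and it served as an alternative. Control and outlier spots were left out, and spots of a probe averaged. Probes were named by accession from a RefSeq table (GRCm38.p6; 26370 of 55681). log2 processed intensity minus each array's 75th percentile was fitted with limma 3.58.1 in R 4.3.3 (group only) for probes that all 3 arrays of either group detected well above background. A gene was its brightest probe on average. Adjustment was Benjamini-Hochberg over all genes, at 0.05. Replicate numbers paired the arrays: deviations from group means correlated at 0.23, 0.13 and 0.37 within numbers and at most 0.06 across. Normexp used the median spot signal, as the files hold no mean signal. The 17 alternatives changed the scaling, background, filter, probe choice, variance model or block, or left out 1 array. In simulated data for this comparison over 13132 genes, 1% of genes changed by 0.5 and 61% of those changed by 1 (log2) were recovered. The simulation changed few genes and gave 67 calls, against 1687 higher and 1716 lower in the data. Adjustment is stricter where fewer genes change, so these shares are not the recovery rate of the real comparison. The members, gene lists and tests were chosen with earlier results of these data known. Named were all members, up to 4 called genes per pathway list by adjusted p, the genes of the 3 pairs and the 5 likest profiles; other pathway genes are named after their values were seen.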

Additional observations from a re-analysis of the deposited data

How the results depend on the processing

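Over 17 alternatives in limma the 10 members' 170 differences kept direction and side of the threshold in 136 cases, lost a call in 24, gained one in 3 and changed sign in 7. The sign changes were Smc3 with quantile normalization (-0.0086) and the authors' processed values (-0.011), Ncaph with the authors' values (-0.00079), and Stag2 with quantile normalization (-0.14), the authors' values (-0.14), the 75th percentile over the probes above background on every array (-0.073) and without Tis21-GFP negative replicate 1 (-0.010, in a range up to 0.18 with 1 array left out). The change of Ncaph minus Ncaph2 was -0.053 when all probes of a gene were averaged. The 4 member genes called became 1 with quantile normalization, 1 with the authors' values, 2 with the percentile over detected probes and 2 with no filter on dim probes, and ran from 0 to 4 when 1 array was left out (0 without negative replicate 1, where 4 passed at an unadjusted p under 0.05, and 1 without negative replicate 3). Their median was 0.15 with quantile normalization, 0.15 with the authors' values, 0.25 with the percentile over detected probes and 0.60 with median centring. Over all tested genes, those called higher numbered 1687 in the setting used above, 1127 with quantile normalization and 1120 with the authors' values. They numbered 933 with the percentile over detected probes and 895 with no filter. The count was 1683 with normexp, 2346 with a variance trend and robust fit and 2347 with median centring. Without negative replicate 1 it was 761. Counts over all probes in these settings are not given here. The 2 member probes called became 0, 0 and 0 with quantile normalization, the authors' values and no filter (2, 2 and 5 at an unadjusted p under 0.05), 1 with the percentile over detected probes, 4 with normexp, 5 with a variance trend and robust fit and 6 with median centring, and ran from 0 to 2 with 1 array left out (0 without negative replicate 1 or 3, where 5 passed unadjusted). The 11 other pathway genes called higher became 6, 5, 5 and 4 with quantile normalization, the authors' values, the percentile over detected probes and no filter, and ran from 5 to 11 with 1 array left out. The 0 called lower became 1 with quantile normalization and 1 with the authors' values (Pttg1), 2 with the percentile over detected probes (Pttg1 and Eid3) and 1 with the replicate block (Eid3), and ran from 0 to 1 with 1 array left out (Eid3, without positive replicate 3). The cause of these changes was not tested. With the replicate block, the pairs' exact sign-flip p was 0.25 for each, the smallest 3 pairs allow, and among members only the Rad21 call changed, while of the other pathway genes Espl1 gained a call upward and Eid3 one downward. With the array's row on the slide as a block, Rad21 and Ctcf lost their calls. A block for slide or scan was not run, since there was 1 of each.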
